A study of Mus musculus with 2 samples.

Results

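Macrophages marked by the chemokine gene Ccl8 and the lectin gene Cd209b were examined in mouse dorsal skin. They numbered 801 of the 17492 cells kept from 2 libraries, 245 of 8875 cells from 1 wildtype mouse and 556 of 8617 cells from 1 Eppk1-/- mouse. Both mice were C57BL/6J, the knockout by backcrossing, and neither had been treated. Ages and the design of the Eppk1 allele were not given in the sources used here. Whole skin from a punch biopsy had been dissociated with enzymes, fixed, and profiled with 10x Genomics Flex, in which pairs of probes bind each transcript and are counted by unique molecular identifiers (UMIs). The libraries held 77638793 and 65118304 UMIs in 9179 and 8811 deposited cells, a median of 5078 and 5093 UMIs per cell. With 1 library per genotype no test between genotypes was possible. All intervals given are exact 95% intervals for counting error, and the spread between mice is not known.

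The cells were chosen by their own counts. C1qa, C1qb and C1qc, the chains of complement C1q that tissue macrophages make, had to reach 0.1% of a cell's UMIs, with at least 1 UMI of the protease gene Ctss. Cells with 2% or more of their UMIs from collagen genes and Dcn, or 1% or more from the keratinocyte genes Dsp, Perp, Sfn and Krt10, were left out. This gave 584 wildtype and 835 Eppk1-/- C1q macrophages. Members then had at least 2 UMIs of Ccl8 and Cd209b together, and at least as many as of Lyve1 and Fcna. C1q macrophages with at least 2 UMIs of Lyve1 and Fcna and more of these than of Ccl8 and Cd209b, 273 wildtype and 196 Eppk1-/- cells, are called Lyve1 and Fcna macrophages below, and the 66 and 83 others the remaining C1q macrophages.

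Resident macrophages of the dermis take up dead cells, lipids and iron, and guide other leukocytes with chemokines. Populations rich in Lyve1 lie along vessels in many tissues, whereas others carry high levels of major histocompatibility complex (MHC) class II, which displays peptides to CD4 T cells. Ccl8 is a chemokine that attracts monocytes, T cells and eosinophils, and Cd209b encodes SIGN-R1, a lectin receptor that binds microbial sugars. Interleukins 4 and 13 drive macrophages, through the transcription factor STAT6, to an alternatively activated state for which the secreted protein RELM-alpha (Retnla) is a common mark.

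Promoters are shown here for Retnla, which of the genes tested had the highest ratio of Eppk1-/- over wildtype members, and for the class II genes H2-Aa and H2-Eb1, which differed in the same direction. Each stretch runs 5′ to 3′ on the gene's strand and ends at the base before the annotated first exon (GENCODE M21, sequence from RefSeq, GRCm38.p6). In Retnla (chr16:48842411-48842550, plus strand) capitals mark the match to TTC and GAA with any 4 bases between them, the palindrome that STAT6 binds. In H2-Aa (chr17:34287824-34287963, minus strand) and H2-Eb1 (chr17:34305727-34305866, plus strand) they mark CTGATTGG, the Y box of class II promoters.
Retnla: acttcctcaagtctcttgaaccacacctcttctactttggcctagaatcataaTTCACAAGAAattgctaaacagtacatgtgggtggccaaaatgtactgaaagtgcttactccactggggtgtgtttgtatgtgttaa
H2-Aa: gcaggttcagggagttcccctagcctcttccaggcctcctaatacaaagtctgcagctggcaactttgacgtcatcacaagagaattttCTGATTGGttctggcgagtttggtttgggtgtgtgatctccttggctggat
H2-Eb1: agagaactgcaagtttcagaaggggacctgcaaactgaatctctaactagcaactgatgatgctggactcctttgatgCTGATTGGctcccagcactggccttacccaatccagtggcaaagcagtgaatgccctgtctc
Motifs were searched on both strands of the bases before the RefSeq start, which in Retnla lies downstream of the GENCODE one. In these windows 5.85% of 32851 mouse promoters held the first motif and 3.83% the second, and the motifs do not overlap in these stretches. The windows of H2-DMa, H2-DMb1, Apoe, Cxcl13, Clec12a, Ccl8 and Cd209b held neither motif, and H2-Ab1, Ccl24 and Hmox1 were not matched. A match is a description of letters, the lack of one says only that these letters are not in this window, and binding was not measured.

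The members made up 2.76% (2.43 to 3.12) of the kept wildtype cells and 6.45% (5.94 to 6.99) of the kept Eppk1-/- cells. Among C1q macrophages their share was 42.0% (37.9 to 46.1) in wildtype and 66.6% (63.3 to 69.8) in Eppk1-/- skin. Lyve1 and Fcna macrophages went the other way, from 46.7% (42.6 to 50.9) to 23.5% (20.6 to 26.5) of C1q macrophages, and the remaining ones were 11.3% and 9.94%. These shares make up all C1q macrophages, so they depend on each other. Of the kept cells, Lyve1 and Fcna macrophages were 3.08% (2.73 to 3.46) in wildtype and 2.27% (1.97 to 2.61) in Eppk1-/- skin. All C1q macrophages together were 6.58% of the wildtype and 9.69% of the Eppk1-/- cells. Other shares also differed between the biopsies: keratinocytes were 48.6% and 38.2% of kept cells, and fibroblasts 17.9% and 30.3%. Mouse, biopsy, dissociation and genotype cannot be told apart here.

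**Figure D1:**
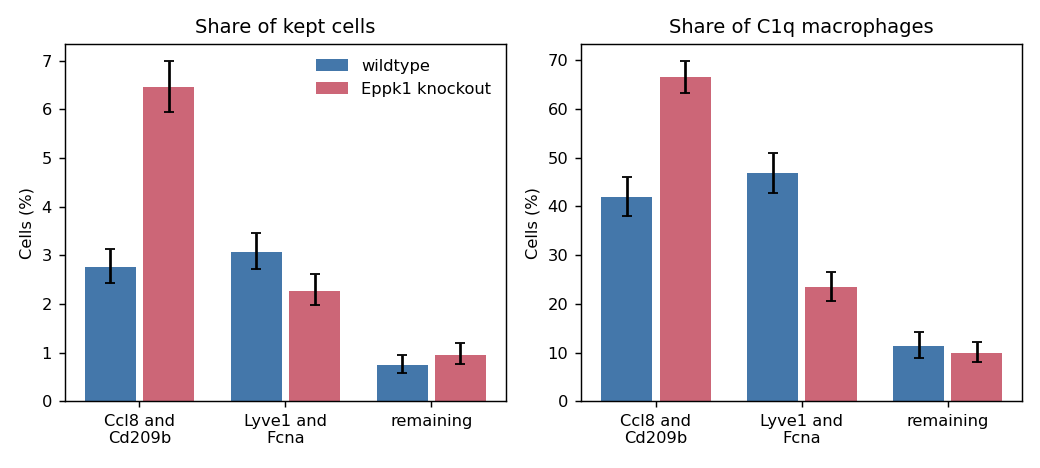
Share of each C1q macrophage class among kept cells (left) and among C1q macrophages (right), in percent, with exact 95% binomial intervals for counting error and 1 library per genotype. The Ccl8 and Cd209b class is the larger one in the Eppk1-/- library, 66.6% of C1q macrophages against 42.0% in wildtype.

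The rule's own genes are given as a description. Ccl8 was at 5603 CPM (UMIs scaled to a total of 1000000 non-mitochondrial UMIs) in wildtype and 3786 CPM in Eppk1-/- members, and Cd209b at 1297 and 1405 CPM. In wildtype 181 of the 245 members (73.9%) held UMIs of both genes, 64 (26.1%) of Ccl8 only and 0 of Cd209b only, which allows a share of up to 1.49%. In Eppk1-/- members these numbers were 379 of 556 (68.2%), 160 (28.8%) and 17 (3.06%). A UMI of Lyve1 or Fcna was found in 167 wildtype (68.2%) and 401 Eppk1-/- members (72.1%). With each cell thinned to 2000 UMIs, 40.8% and 44.4% of members held a UMI of Lyve1, beside 0.909% and 0.270% of keratinocytes, and 32.9% and 43.1% of Fcna, beside 1.04% and 0.372% of keratinocytes. At the threshold, 2 wildtype and 16 Eppk1-/- members had exactly 2 UMIs of Ccl8 and Cd209b, and H2-Ab1 stood at 14681 and 8301 CPM in them. Just outside it, 8 and 12 cells had exactly 1 such UMI and no excess of Lyve1 and Fcna, and H2-Ab1 stood at 8023 and 9829 CPM. Members with equal counts of both gene pairs were 5 and 16, and 7 and 19 cells fell outside by 1 or 2 UMIs.

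H2-Ab1, the marker that the rule did not use, had a UMI in 81.7% of the wildtype members and 92.0% of the Eppk1-/- members in thinned cells. The 32 wildtype and 45 Eppk1-/- members with fewer than 2000 UMIs, and 352 and 335 keratinocytes, were left out of all thinned shares. Keratinocytes, which lack the gene at rest, showed 2.50% and 3.11%, at median depths of 4933.5 and 4828 UMIs before thinning. The macrophage receptor genes Csf1r (1659 and 1682 CPM), Mrc1 (4529 and 3786 CPM) and Cd163 (2729 and 2299 CPM) were high in both libraries. Wildtype members were deeper, with a median of 6589 UMIs and 2515 genes against 5090 UMIs and 2076.5 genes in Eppk1-/- members, and mitochondrial shares were 0.347% and 0.313%. The summed UMIs of members were 1759098 and 2981484. Of the droplet barcodes, 1211 occurred in both libraries, and 20 wildtype and 66 Eppk1-/- members carried one of them.

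Markers of other cells were looked for in the members. The T and NK cell markers summed to 284 and 125 CPM in wildtype and Eppk1-/- members, and Cd4, which is 1 of them, gave 227 and 74.7 CPM of this. Cd3g and Trac of the T cell receptor complex were at 0 in both libraries, and Cd3e was at 0 in wildtype and 0.673 CPM in Eppk1-/- members. The mast cell markers summed to 12.6 and 12.5 CPM, and the vessel markers to 17.7 and 24.6 CPM. The 10 neutrophil markers summed to 725 and 485 CPM, of which the gelatinase gene Mmp9 gave 671 and 435 CPM, and 8 and 5 of the 10 were at 0, among them Ly6g and S100a9 in both libraries. The monocyte markers summed to 2951 and 4175 CPM, with Lyz2 first (2261 and 3470 CPM), and Chil3 and Treml4 were at 0 in both libraries. The 18 dendritic and Langerhans cell markers summed to 2488 and 2275 CPM, with Mgl2 first (1758 and 1349 CPM). Of these 18, 3 were at 0 in each library, Clec9a in both, and Cd207 was at 58.8 and 6.06 CPM. The 15 keratinocyte markers summed to 3269 and 2551 CPM, with Krt5 the most abundant (363 and 367 CPM), and the 13 fibroblast markers to 1754 and 1721 CPM, with Dcn first (324 and 310 CPM). None of these 28 was at 0. The Schwann cell and melanocyte markers summed to 111 and 48.5 CPM, with S100b at 0 in the Eppk1-/- members. The part of all these markers in the differences below was not tested.

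Eppk1, the knocked-out gene, encodes the cytolinker epiplakin of epithelia. It stood at 3441 CPM in wildtype keratinocytes and at 901 CPM in Eppk1-/- ones, and 79.9% and 23.7% of thinned cells held a UMI. In the members, which as macrophages are not an epithelial source, it was at 65.1 CPM (114 UMIs) and 18.9 CPM (56 UMIs). Both libraries thus followed their labels, with signal left in the Eppk1-/- one. Whether the probes lie in the deleted part is not given in the sources used here. The plakin genes Plec and Dst were also lower in Eppk1-/- members (457 and 246 CPM, log2 ratio −0.89, and 156 and 67.7 CPM, log2 ratio −1.21), whereas Macf1 stood at 124 and 127 CPM.

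Genotypes were then compared over the summed UMIs of the members. A gene was tested if at least 25% of the cells of either library held it and both libraries together gave 50 UMIs, with the rule's genes left out. A gene could thus enter through the library where it was higher. Of the 10 highest genes below, Clec12a, Cd300lb, Plekhg2, Iqcn and Ccl4 reached 25% only in Eppk1-/- members. Of the 10 lowest, Lor, Cxcl13, Cd55, Apobec3, Clec4n, Cd4, Tnfaip2 and S100a4 reached it only in wildtype members, which were also deeper. The counts below include such genes. It was called by size alone, at a log2 ratio (Eppk1-/- over wildtype, 0.5 UMI added to each sum) of at least 0.5 in either direction. Of 3857 genes tested, 147 (3.81%) were higher and 341 (8.84%) lower in Eppk1-/- members, and for all of these the interval of the ratio left out 0. The median ratio of all tested genes was −0.107, so that the split depends on the scaling: with TMM factors, which shifted the median to 0.0133, 235 were higher and 179 lower. Values below are on the unshifted scale, and each list count is to be read beside the shares of 3.81% and 8.84%. Of the 75 genes named by rule or list whose ratio passed 0.5, 64 still did, in the same direction, when each cell weighed the same, and 41 did in members with no Lyve1 and no Fcna UMI (78 and 155 cells). Where a ratio printed below lost its call in the latter cells, the ratio in them is given beside it. In the same comparison 5.98% of 5147 genes were higher and 24.2% lower in Lyve1 and Fcna macrophages, and 4.48% and 3.79% of 4037 genes in fibroblasts. In keratinocytes only 0.164% and 0.409% of 3669 tested genes passed in the 2 directions.

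**Figure D2:**
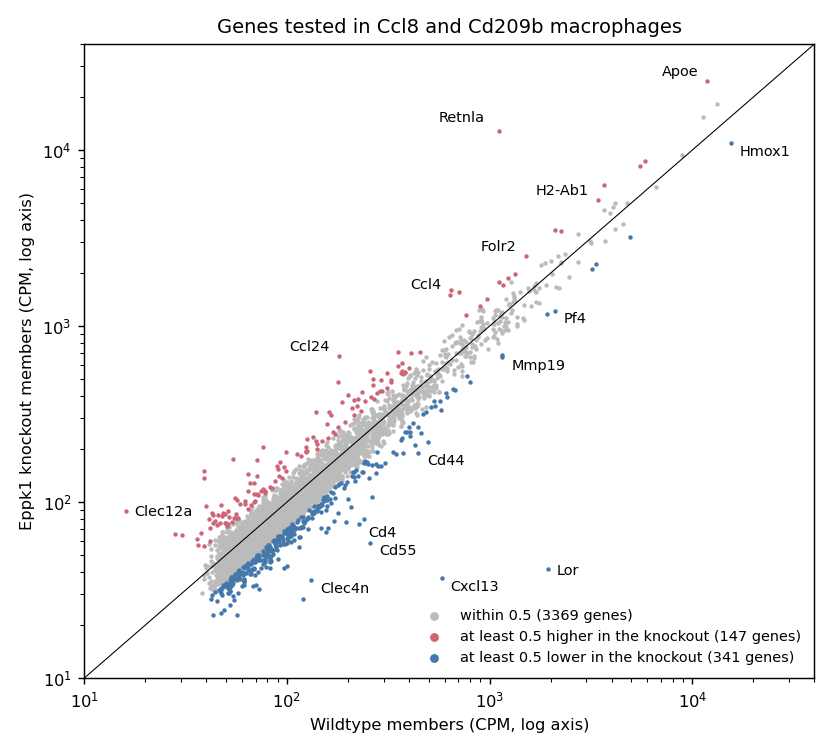
Each point is 1 of the 3857 genes tested in the members, by its CPM in wildtype (x axis) and Eppk1-/- members (y axis), both on log axes, summed over 245 and 556 cells. Red points are at least 0.5 higher on the log2 scale (147 genes), blue ones at least 0.5 lower (341 genes), and Retnla, at 1115 and 12735 CPM, lies farthest above the diagonal.

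Retnla stood at 1115 CPM (1066 to 1165, 1952 UMIs) in wildtype and 12735 CPM (12607 to 12864, 37832 UMIs) in Eppk1-/- members, a log2 ratio of 3.51 (3.45 to 3.58). More cells held it as well: 24.9% of thinned wildtype and 70.1% of thinned Eppk1-/- members had a UMI, beside 2.15% and 3.92% of keratinocytes. The median member gave none of its UMIs to Retnla in wildtype and 0.766% in Eppk1-/- skin, and the highest cell 1.85% and 7.97%. The difference was not confined to members with Lyve1 or Fcna UMIs, in which Retnla was at 1428 and 16023 CPM. In those without either it was at 121 and 2357 CPM. Retnla was also higher in Lyve1 and Fcna macrophages of the Eppk1-/- library (6770 and 30724 CPM, log2 ratio 2.18), and less so in the remaining C1q macrophages (16366 and 20621 CPM, log2 ratio 0.33). Over all C1q macrophages, whose choice did not use Ccl8, Cd209b, Lyve1 or Fcna, it was at 5479 and 17342 CPM. It was higher in keratinocytes too (21.6 and 157 CPM) and in fibroblasts (44.6 and 135 CPM), and the part of free RNA in these values was not tested.

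Other genes of the alternatively activated state were mostly near even. Of 10 tested genes of this list 2 were higher and 0 lower, beside 3.81% and 8.84% of all tested genes, with a median ratio of 0.13. The second was Ccl24, the chemokine eotaxin-2 that attracts eosinophils, at 180 CPM (161 to 201) and 674 CPM (645 to 704), a log2 ratio of 1.90, found in 21.1% and 59.7% of thinned members and 0.10% and 0.44% of keratinocytes. In Lyve1 and Fcna macrophages it was at 129 and 1089 CPM. The lectin genes Clec10a and Mgl2, also raised by interleukin 4 in macrophages, stood at 1103 and 1237 CPM and at 1758 and 1349 CPM. Il4ra, which encodes the receptor chain shared by interleukins 4 and 13, was at 306 and 262 CPM, and Il10 at 504 and 598 CPM.

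**Figure D3:**
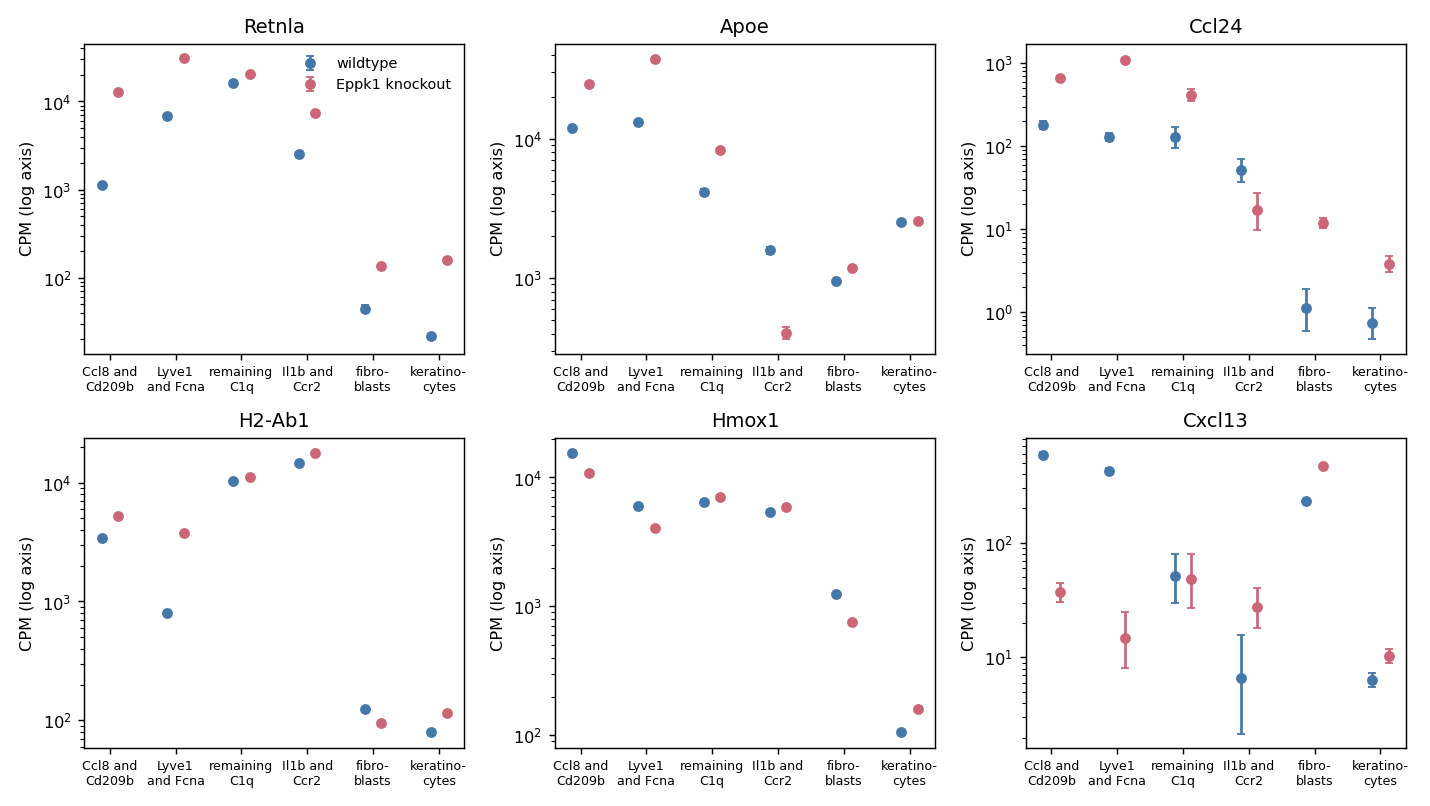
CPM of 6 genes (y axes, log scale) in each cell population (x axes) of the wildtype and Eppk1-/- library, with exact 95% Poisson intervals for counting error. Retnla, Apoe and Ccl24 are higher in the Eppk1-/- library in all 3 C1q macrophage classes, H2-Ab1 differs most in the Lyve1 and Fcna class (805 and 3748 CPM), and Cxcl13 is lower in 2 macrophage classes but higher in fibroblasts.

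Class II genes were modestly higher in Eppk1-/- members. Of 8 tested genes of the class II list 5 were higher and 0 lower, beside 3.81% and 8.84% of all tested genes. The median ratio of the list was 0.55, beside −0.107 over all tested genes. H2-Ab1, the beta chain of I-A, was at 3425 CPM (3339 to 3513) in wildtype and 5192 CPM (5110 to 5274) in Eppk1-/- members. H2-Aa, its alpha chain, was at 5828 and 8712 CPM, and H2-Eb1, the beta chain of I-E, at 5495 and 8061 CPM, with ratios of 0.58 and 0.55. H2-DMa (159 and 233 CPM) and H2-DMb1 (41.7 and 71.7 CPM), which load peptides, were the others. In members with no Lyve1 and no Fcna UMI the ratios of H2-Ab1, H2-Aa, H2-Eb1 and H2-DMa were 0.43, 0.41, 0.38 and 0.40, and as a mean over cells 0.41, 0.39, 0.36 and 0.36, so that these 4 calls ended under both, and H2-DMb1 alone stayed past 0.5. Cd74, the invariant chain, fell just short with 13180 and 18230 CPM and a ratio of 0.47, and the costimulatory genes Cd86 and Cd40 had ratios of 0.26 and 0.12. H2-Aa, H2-Ab1, H2-Eb1 and Cd74 together gave a median of 2.69% of a wildtype member's UMIs and 3.88% of an Eppk1-/- member's, and the ranges from the 25th to the 75th percentile, 0.935 to 5.05% and 1.86 to 6.17%, overlapped widely. In Lyve1 and Fcna macrophages the medians were 0.384% and 3.08%, and H2-Ab1 was at 805 and 3748 CPM.

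Class I genes did not show this. Of 12 tested class I genes 0 were higher and 1 lower, Tap1, the peptide transporter (log2 ratio −0.67). These counts are near the shares of all tested genes, 3.81% higher and 8.84% lower. The median ratio of the class I genes was −0.21, beside −0.107 over all tested genes. Among 14 tested interferon response genes 2 were higher, the RNA sensor Ifih1 (166 and 311 CPM, 0.91) and the GTPase gene Gbp7 (0.52), and 3 lower, among them Irf7 (335 and 193 CPM, −0.79) and Bst2 (771 and 520 CPM, −0.57). The signs of Ifih1 (−0.30) and Irf7 (0.36) turned in members with no Lyve1 and no Fcna UMI, and Gbp7 was at 0.48 and Bst2 at −0.29 there.

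**Figure D4:**
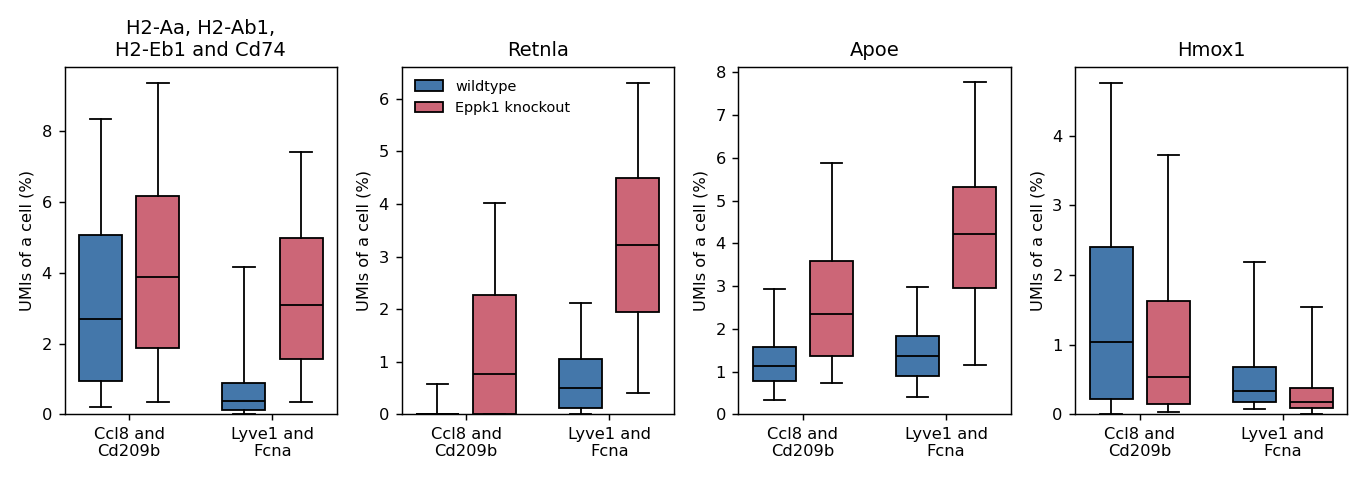
Share of a cell's UMIs (y axes, percent) for the 4 class II genes, Retnla, Apoe and Hmox1 in single cells of the members and of the Lyve1 and Fcna macrophages. Boxes span the 25th to the 75th percentile of the cells with the median as a line, and whiskers run from the 5th to the 95th percentile; the class II median is 2.69% and 3.88% in members and 0.384% and 3.08% in the Lyve1 and Fcna class.

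Apoe, the lipid carrier apolipoprotein E, had the most UMIs of all genes in Eppk1-/- members, whereas Hmox1 and Cd74 had more in wildtype ones. It was at 11870 CPM (11709 to 12032) in wildtype and 24657 CPM (24479 to 24836) in Eppk1-/- members, a ratio of 1.05, and the median share of a cell's UMIs was 1.12% and 2.35%. Its level in keratinocytes was nearly even, 2541 and 2564 CPM. Of 12 tested genes of cholesterol efflux and lipid handling Apoe was the only one past 0.5. Of all tested genes 3.81% were higher and 8.84% lower. Abca1, the efflux pump, was at 485 and 487 CPM. Folr2, the folate receptor beta of resident macrophages, was also higher (1502 and 2495 CPM, 0.73), as was Lyz2, lysozyme (2261 and 3470 CPM, 0.62), at 0.49 and 0.40 in members with no Lyve1 and no Fcna UMI. Cst3, the protease inhibitor cystatin C, was at 3648 and 6301 CPM (0.79).

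Chemokine genes went both ways. Of 13 tested ligands 3 were higher and 2 lower, beside 3.81% and 8.84% of all tested genes. Ccl4, which attracts monocytes and T cells, was at 638 CPM (601 to 676) and 1509 CPM (1465 to 1554), and Ccl3, a related chemokine, had a ratio of 0.75, and of 0.29 in members with no Lyve1 and no Fcna UMI. Cxcl13, which draws B cells through CXCR5, was at 579 CPM (544 to 616, 1014 UMIs) in wildtype and 37.0 CPM (30.4 to 44.6, 110 UMIs) in Eppk1-/- members, a ratio of −3.96, and of −1.96 in members with no Lyve1 and no Fcna UMI. It was found in 27.2% and 3.13% of thinned members, and in 0.56% and 0.84% of keratinocytes. Cxcl13 was likewise lower in Lyve1 and Fcna macrophages (425 and 14.8 CPM), while fibroblasts had 231 and 468 CPM. Pf4, platelet factor 4, was at 2094 and 1225 CPM (−0.77, and −0.41 in members with no Lyve1 and no Fcna UMI). Of 5 tested receptors Cxcr4, the receptor of CXCL12, was higher (0.60) and 0 were lower.

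Lectin and scavenger receptor genes were split as well, 3 higher and 2 lower of 18 tested, beside 3.81% and 8.84% of all genes. Clec12a, an inhibitory lectin receptor, was at 15.99 CPM (10.6 to 23.1, 28 UMIs) in wildtype and 89.2 CPM (78.8 to 101, 265 UMIs) in Eppk1-/- members, and Cd209a, a relative of Cd209b, at 382 and 551 CPM. The ratio of Cd209a fell from 0.53 to 0.02 in members with no Lyve1 and no Fcna UMI. Clec4n, which encodes the fungal receptor dectin-2, was at 132 and 36.0 CPM (−1.87), and Cd209e, another relative, at 97.1 and 42.1 CPM (−1.20). Clec12a (8.16% and 29.9% of cells) was tested only through the Eppk1-/- library and Clec4n (38.8% and 12.6%) only through the wildtype one, so the filter favoured these calls. Of the complement genes tested, 1 of 11 was higher and 3 lower. The lower were C3 (405 and 251 CPM, −0.69), Cd55, which speeds the decay of C3 convertases (256 and 58.9 CPM, −2.12), and Itgam, the alpha chain of complement receptor 3 (533 and 376 CPM, −0.50), whose call ended under 6 alternatives, at −0.49 to −0.38. C3 was at −1.80 and Cd55 at −1.30 in members with no Lyve1 and no Fcna UMI.

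The remaining genes among the 10 highest by the interval bound nearest 0 were Cd300lb, an activating receptor gene (38.8 and 151 CPM, 1.95), Plekhg2 (1.80), Iqcn (1.69), Ppp1r10, a regulatory subunit gene of protein phosphatase 1 (1.44), Nfkbid, an atypical inhibitor of NF-kappaB (1.42), and the stress gene Gadd45b (641 and 1598 CPM, 1.32). Cd300lb (16.7% and 36.7% of cells), Plekhg2 (21.2% and 34.2%) and Iqcn (17.6% and 36.7%) were tested only through the Eppk1-/- library, where they were higher. Plekhg2 was at 0.05 and Gadd45b at 0.27 in members with no Lyve1 and no Fcna UMI, while the other 8 of the 10 stayed past 0.5. Among the 10 lowest were Apobec3, a restriction factor for retroviruses (−2.08), Il2rg, the common cytokine receptor gamma chain (239 and 80.5 CPM, −1.57), Tnfaip2 (−1.34), and S100a4, a calcium-binding protein (262 and 107 CPM, −1.29). Apobec3 was also lower in Lyve1 and Fcna macrophages (238 and 38.1 CPM) and keratinocytes (2.29 and 0.471 CPM), but higher in fibroblasts (9.97 and 24.9 CPM). It lies on chromosome 15 (from base 79891659), as Eppk1 does (from base 76101481), and the part of this position was not tested. Cd44, the hyaluronan receptor, was at 443 and 191 CPM (−1.21). Cd4, which some tissue macrophages carry as T helper cells do, was at 227 and 74.7 CPM (−1.60), found in 32.4% and 11.9% of thinned members and 0.126% and 0.0338% of keratinocytes. All 10 stayed past 0.5 in members with no Lyve1 and no Fcna UMI, with Tnfaip2 at −0.73 and Cd4 at −0.57. The lowest of all was Lor, loricrin of the cornified layer, with a ratio of −5.54, but 96.2% of its wildtype UMIs came from 1 cell, and the ratio was −0.87 with the top cell of each library left out.

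Inflammatory and early response genes were higher in part. Of 9 tested inflammatory genes 5 were higher, Tnf (201 and 403 CPM), the maturation marker Cd83 (186 and 370 CPM, 0.99) and the NF-kappaB feedback genes Nfkbia (0.60), Nfkbiz (0.56) and Tnfaip3 (0.51). These last 3 were at −0.02, −0.54 and −0.56 in members with no Lyve1 and no Fcna UMI, so that their signs turned. Tnfaip2 and Sod2 (−0.52), which encodes manganese superoxide dismutase, were lower, but the call for Sod2 ended under 5 alternatives, at −0.49 to −0.39. The median ratio of the tested genes was 0.51, but −0.38 over all list genes with 50 UMIs, and the sign turned with several cell filters. Of these list genes 7 had a ratio above 0 and 8 below 0. Il6 (118 and 37.0 CPM) and Ptgs2 (231 and 101 CPM), which were not among the tested genes, were lower. Of 21 tested early genes, which dissociation also switches on, 6 were higher and 0 lower, with a median of 0.31. Of all tested genes 3.81% were higher and 8.84% lower. The early genes past 0.5 are given next. They were Egr1 (704 and 1569 CPM, 1.16), Nr4a1 (0.90), Ier2 (0.85), Ier5 (0.74), Fos (0.57) and Junb (0.57). In members with no Lyve1 and no Fcna UMI only Ier5 of these 6 stayed past 0.5, with Egr1 at 0.10, Nr4a1 at 0.16, Ier2 at 0.25, Fos at 0.40 and Junb at 0.07. The heat shock genes Hspa1a and Hspa1b together gave a median of 0.244% of a wildtype and 0.481% of an Eppk1-/- member's UMIs. The part of dissociation in the differences above was not tested.

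**Figure D5:**
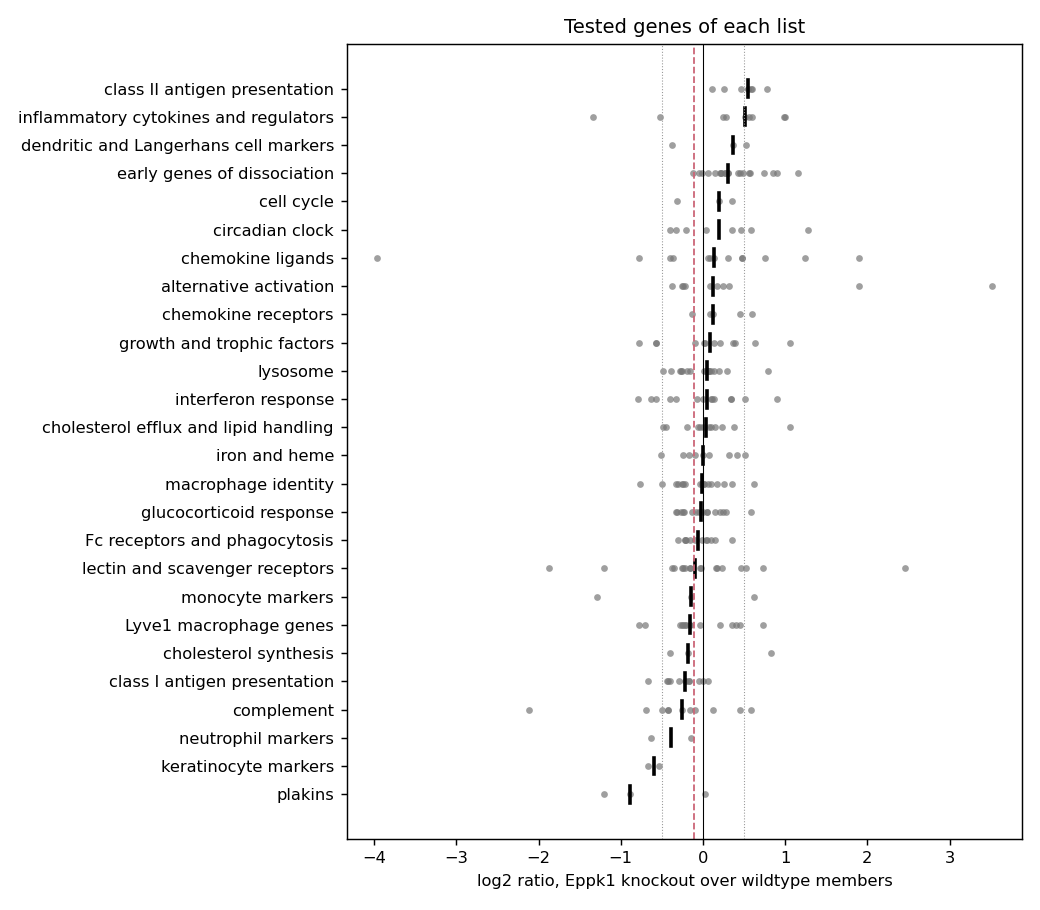
log2 ratio of Eppk1-/- over wildtype members (x axis) for the tested genes of each gene list with at least 2 of them (rows); points are genes, black bars list medians. The dashed line is the median of all tested genes, −0.107, and dotted lines mark 0.5 in each direction; the class II bar stands highest, at 0.55.

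Hmox1, heme oxygenase 1, which breaks down heme, had the most UMIs of all genes in wildtype members, 15502 CPM (15318 to 15687), and was at 10910 CPM (10792 to 11029) in Eppk1-/- members, a ratio of −0.51. The ratio was −0.39 with TMM factors. In members with a Lyve1 or Fcna UMI Hmox1 was at 15169 and 8652 CPM (−0.81), and in those with neither at 16556 and 18036 CPM (0.12). Of 9 tested iron and heme genes the metal transporter gene Slc11a1 was the other past 0.5 (231 and 329 CPM, 0.51, and 0.35 to 0.499 under 5 alternatives that ended its call), and Cd163, the hemoglobin scavenger receptor, was at 2729 and 2299 CPM. Growth and trophic factor genes gave 2 higher and 3 lower of 12 tested, beside 3.81% and 8.84% of all tested genes. Beside Apoe and Pf4 these were Hbegf, a ligand of the EGF receptor (243 and 377 CPM, 0.63), Gdf15, a stress cytokine (3330 and 2247 CPM, −0.57, and −0.11 in members with no Lyve1 and no Fcna UMI), and Pdgfa (94.2 and 63.3 CPM, −0.57, and −0.47 to −0.42 under 3 alternatives that ended its call).

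The members varied among themselves. Wildtype members with no Lyve1 and no Fcna UMI, 78 cells, had 5722 CPM of H2-Ab1 against 2700 CPM in the 167 others, and in the Eppk1-/- library 155 such cells had 7688 CPM against 4401 CPM in 401. Folr2 was lower in them, 871 against 1702 CPM in wildtype and 1224 against 2897 CPM in Eppk1-/- members. Apoe differed little in wildtype, 10256 against 12379 CPM, and more in Eppk1-/- members, 15339 against 27609 CPM. Members with a Retnla UMI numbered 75 of 245 and 413 of 556. They had less H2-Ab1 than those without in both libraries, 2504 against 4001 CPM and 4644 against 7006 CPM, and less Hmox1, 14182 against 16326 CPM and 9265 against 16358 CPM. Deeper cells hold a given UMI more often, and no test over cells was made.

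Against the Lyve1 and Fcna macrophages the members differed in genes beyond those of the rule. Here 25% of cells had to be reached in either class of either library, so a gene could enter through the class where it was higher. Of 5218 genes tested 286 (5.48%) were at least 0.5 higher in members in both libraries, and 260 (4.98%) at least 0.5 lower. This split depends on the scaling, with 213 higher and 354 lower under TMM factors. The same cells' counts chose both classes, so this is a description. The Lyve1 and Fcna macrophages held a median of 11024 UMIs in wildtype and 4808.5 in Eppk1-/- skin, against 6589 and 5090 in members, and with all cells thinned to 2000 UMIs 161 genes were higher and 124 lower of the 1596 that could then be tested, 98 and 78 of them among the former. Hmox1 was higher in members, with log2 ratios of 1.37 in wildtype and 1.41 in Eppk1-/- skin, and so was Cd4 (2.09 and 3.24). The Cd4 ratio in Eppk1-/- skin (interval 2.27 to 4.67) rests on 7 UMIs in the Lyve1 and Fcna macrophages. Other leading genes were Mmp19, a matrix metalloproteinase, Vcam1, an adhesion molecule, Gpr183, a receptor for oxysterols, Dnase1l3, which digests extracellular DNA, Spic, a transcription factor of macrophages that recycle iron, Gclm, of glutathione synthesis, Cd44 and Fam129b. Retnla was lower in members (−2.60 and −1.27), as was the chemokine gene Ccl6 (−1.99 and −1.14). The others in the lead were Padi4, Ltc4s, Adgre5, Slfn1, Plac8, Gda and the interferon-induced Ifit1 and Ifit3. Padi4, Adgre5, Slfn1, Ifit1 and Ifit3 reached 25% in members of neither library. They were thus tested only through the Lyve1 and Fcna macrophages, where they were higher, so the filter favoured these calls. Of 19 interferon response genes tested 13 were lower in members and 0 higher, under the same filter. H2-Ab1 was far higher in members in wildtype (2.09) and by 0.47 in the Eppk1-/- library, so that 0 of 9 class II genes passed in both.

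A further population of 117 wildtype and 160 Eppk1-/- cells, chosen by Il1b and Ccr2 among cells low in C1q, was mixed in its markers. Its monocyte markers summed to 9506 and 12909 CPM, and its dendritic and Langerhans cell markers to 6647 and 5574 CPM. Its Cd207, the Langerhans cell lectin, stood at 3876 and 3025 CPM, and Ccr7, the receptor of migrating dendritic cells, at 514 and 417 CPM. In the members Il1b was at 41.7 and 32.0 CPM and Ccr2 at 11.4 and 34.0 CPM. Retnla in that population was at 2546 and 7494 CPM, and Apoe at 1588 and 402 CPM, in the opposite order to the members.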

How the data were processed

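The authors deposited, for each library, UMI counts per gene and called cell as whole numbers without normalization; their processing notes name Cell Ranger 8.0.1 and mm10 (GRCm38). The table held 19059 probe-targeted genes, of which 13 mitochondrial ones were left out of CPM. The study's own cell filters were applied: UMIs between 200 and 45000, genes between 100 and 7500, and a mitochondrial share no higher than 10%. Members, populations and the 31 gene lists were chosen with earlier results of these data known. UMIs were summed per population and library in Python 3.11.15 (numpy 2.4.6, pandas 2.3.3), with exact Poisson and Clopper-Pearson intervals at 95% (scipy 1.17.1); they cover counting error only. A count of 0 in a share was given its upper bound. The study's test over single cells was not used, since cells are not replicates. Genes named were those of the lists, the 10 highest and 10 lowest of each comparison by the interval bound nearest 0, and the 10 genes with the most UMIs. Flex levels depend on probes, so levels of different genes were not ranked against each other except by UMIs. A few genes counted in the lists are not reported here by name.

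Scrublet (scanpy 1.11.5, expected rate 0.06) called 2 wildtype and 217 Eppk1-/- cells at its own thresholds, too few to have worked in wildtype; no cell was removed, and an alternative removed the 5% with the highest scores. Further alternatives changed the cell filters, depth, shared barcodes, scaling (TMM by edgeR 4.0.16), detection, pseudocount and size; leaving out each gene's top cell, and using members with no Lyve1 and no Fcna UMI, were added after seeing the data. The ratio and its interval were tested on simulated data.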

Additional observations from a re-analysis of the deposited data

How the results depend on the processing

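No paired analysis was possible because each genotype has 1 library, and no replicate could be left out. The member shares moved by less than their intervals under all 8 alternatives tried, from 2.58 to 2.92% of wildtype and 6.19 to 6.59% of Eppk1-/- kept cells. Genes higher in Eppk1 knockout members numbered 235 with TMM, 222 centred on the median, 311 of 6865 tested with detection in 10% of cells, 503 of 8211 with no detection rule and 24 at a size of 1. Genes lower in Eppk1 knockout members numbered 179, 190, 852, 1143 and 28 under these, and 140 after thinning, where 1332 genes could be tested. Genes higher in members than in Lyve1 and Fcna macrophages numbered 161 of 1596 tested after thinning, 526 of 7888 and 883 of 9377 with less detection, and 40 of 5218 at a size of 1; genes lower in members than in Lyve1 and Fcna macrophages 124, 392, 448 and 45. The median log2 ratio of class II antigen presentation was 0.36 as a mean over cells, and 0.41 to 0.67 otherwise. In members with no Lyve1 and no Fcna UMI, 218 genes were higher and 331 lower of 3095, 58 and 108 of them shared with those reported. There the log2 ratio of Ifih1 was −0.30, of Tnfaip3 −0.56, of Nfkbiz −0.54 and of Nfkbia −0.022, while the log2 ratio of Gclm was 0.36, of Irf7 0.36, of Hmox1 0.12 and of Krt77 0.00236, all with signs turned. Krt77 was at 0.0768 with halved collagen and keratinocyte limits, and Dmkn at 0.0183 without shared barcodes. The cause was not tested. The calls for Bst2, Dmkn, Gdf15, Hmox1, Itgam, Pdgfa and Sod2 ended with TMM, those for Bst2, Ccl3, Cd209a, Irf7, Itgam, Lyz2, Slc11a1 and 4 class II genes as a mean over cells, and those for Bst2, Cd209a, Itgam, Mmp9, Per1, Tnfaip3, H2-Aa, H2-DMa and H2-Eb1 after thinning. Of 240 genes with a ratio, 75 were past 0.5, and 66 of these held their direction under all 14 alternatives; Retnla ranged from 2.97 to 4.27 and Cxcl13 from −4.77 to −1.96. Depth limits genes of few UMIs: 3 UMIs over the members of a library correspond to 1.71 CPM for wildtype and 1.01 for Eppk1-/-.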

Other observations

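Several housekeeping groups of the macrophages were near even between genotypes. The median ratio was 0.05 for tested lysosomal genes and −0.06 for those of Fc receptors and phagocytosis. Of all tested genes 3.81% were higher and 8.84% lower, so that lists of this size would hold few calls in any case. Of 19 tested lysosomal genes 1 was higher and 0 were lower, with cathepsin B (Ctsb) at 8887 and 9354 CPM. Of 12 tested genes of Fc receptors and phagocytosis 0 passed 0.5 in either direction, with Fcgr2b, the inhibitory Fc receptor, at 1035 and 1026 CPM. The 17 tested genes of macrophage identity gave 1 higher, Lyz2, and 2 lower, Aif1 (403 and 238 CPM, log2 ratio −0.76) and Itgam. Of 15 tested Lyve1 macrophage genes Folr2 was higher, and Pf4 and Cbr2, a carbonyl reductase (1914 and 1175 CPM, −0.70), were lower. In members with no Lyve1 and no Fcna UMI the ratios of Lyz2 (0.40), Aif1 (−0.14), Folr2 (0.49), Pf4 (−0.41) and Cbr2 (−0.499) did not reach 0.5.

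Of 8 tested clock genes 2 were higher, Ciart (70.8 and 173 CPM, 1.28) and Per1 (279 and 419 CPM, 0.59), and 0 lower. Each list count here is to be read beside the 3.81% higher and 8.84% lower of all tested genes. Per1 was also the 1 gene past 0.5 among 16 tested glucocorticoid response genes, whose median ratio was −0.02. The time of day of sampling is not given in the sources used here. Of 3 tested cholesterol synthesis genes Insig1, which holds back the pathway, was higher (215 and 380 CPM, 0.82), and of 3 tested cell cycle genes 0 passed. The gelatinase gene Mmp9 was lower (671 and 435 CPM, −0.63), and of the keratinocyte markers Krt77 (−0.67) and Dmkn (−0.53). The call for Dmkn ended under 5 alternatives, at −0.479 to 0.0183, the last without shared barcodes. In members with no Lyve1 and no Fcna UMI Per1 was at 0.33, Mmp9 at −0.27 and Krt77 at 0.00236.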
